A study of Mus musculus with 8 samples.

Results

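The genes described here are 9 regulators of cell cycle arrest and the damage response in activated CD8+ T cells, taken by symbol from the 24976 genes of the count table. They are the cell cycle inhibitors Cdkn1a (p21) and Cdkn1b (p27), the stress genes Gadd45a, Gadd45b and Gadd45g, p53 itself (Trp53), and 3 genes it is known to induce, Trp53inp1, Mdm2 and Ccng1. Naive CD8+ T cells of mice were activated in culture with antibodies against CD3 (2 µg per ml) and CD28 (1 µg per ml) and with IL-2 (10 ng per ml), and RNA of whole cultures was sequenced. The dKO label (NR4aDKO) marks cells of mice that carry Cd8Cre with floxed alleles of NR4a1 and NR4a2 (flox/flox), so Cre acts in cells that use the Cd8 promoter, and the WT label marks cells of littermates with no deletion. The 8 libraries form 4 groups of 2: dKO at 24 h, WT at 24 h, dKO at 48 h and WT at 48 h. The sources used here do not give strain, age, sex or mice per library. Nothing says whether replicates came from separate mice, so the p-values cover library-to-library spread, which may be technical. In bulk RNA, fewer cells of a type and less RNA per cell cannot be told apart.

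p53 is a transcription factor that cells stabilise after DNA damage or strong growth signals. It induces Cdkn1a, whose protein p21 blocks cyclin-dependent kinases, and also Mdm2, which marks p53 for destruction and so closes a feedback loop. The GADD45 proteins are small stress proteins that activate a kinase upstream of p38 and JNK, and in T cells antigen receptor and cytokine signals can induce Gadd45b and Gadd45g without p53. p27 holds resting T cells out of the cell cycle and is controlled largely at the protein level.

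The libraries held 5000952 to 21686236 counts. The deepest was WT 48 h replicate 2, and the next, dKO 24 h replicate 1, held 8278058. Levels are in CPM, counts scaled to a common library total, adjusted by TMM, a factor per library that lines up the bulk of genes. A count of 0 allows up to 0.158 to 0.556 CPM (3 counts; counting error only). No fall of the targeted genes passed the test, so gene-level counts leave the deletion unchecked. Nr4a1 averaged 519 ± 18.8 CPM in libraries labelled dKO and 400 ± 176 CPM in WT libraries at 24 h (adjusted p = 0.88), and 651 ± 24.6 CPM in libraries labelled dKO and 828 ± 72.3 CPM in WT libraries at 48 h (adjusted p = 0.38, edgeR). Both libraries labelled dKO were thus below both WT libraries for Nr4a1 at 48 h, and the groups overlapped at 24 h. Nr4a2 was higher under the dKO label at both times, at 139 ± 4.69 CPM in libraries labelled dKO and 54.4 ± 7.53 CPM in WT libraries at 24 h, and at 76.3 ± 1.29 CPM in libraries labelled dKO and 28.8 ± 6.04 CPM in WT libraries at 48 h (SD, n = 2 each). Directions below are those of the libraries labelled dKO. Xist, the RNA of the inactive X chromosome, lay between 0.655 and 1.67 CPM under the dKO label and between 387 and 816 CPM in WT. Summed over 4 Y-linked genes, the level was 135 to 158 CPM under the dKO label and 1.32 to 2 CPM in WT. The libraries labelled dKO thus had the sex-linked transcripts of male cells and the WT libraries those of female cells. Genotype label and sex therefore cannot be told apart in any genotype comparison, for any gene, Cdkn1a and Gadd45g included. Replicates lay further apart in WT at 48 h (median absolute log2 difference 0.364) than in the other 3 groups (0.149 to 0.195), and the share of ribosomal protein genes was 6.36% in its replicate 2, against 10.0 to 12.1% in the other 7 libraries. Of the CD8 markers, 4 of 6 were analysed here and summed to 1342 to 1456 CPM in libraries labelled dKO and 1060 to 1693 CPM in WT libraries. The other marker lists summed to at most 6.45 CPM in any library, except the NK list of 3 genes, at 18.1 to 35.1 CPM in libraries labelled dKO and 7.32 to 22.9 CPM in WT libraries, nearly all of it Eomes, which CD8+ T cells also express; its defining marker Ncr1 was at 0 in all 8.

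Before the levels, the promoters show which of these genes carry a p53 motif next to their start. RefSeq windows of 300 bases (250 before and 50 after the start, GRCm38.p6) were at hand for 8 of the 9 genes. Of these 8 genes 5 had a window with the consensus decamer of p53, a half-site (searched by name, both strands). Of all 32851 windows, each counted singly, 8.36% held it. The units differ, since Cdkn1a counts as 1 gene with 2 windows. The bases before the start are printed 5′ to 3′ for 4 genes, with the decamer in capitals. Cdkn1a, Ccng1 and Mdm2 are shown as p53 targets that carry it, and Gadd45g as the gene with the largest rise, which has no match in its window.
Cdkn1a, chr17:29090729-29090978, plus strand: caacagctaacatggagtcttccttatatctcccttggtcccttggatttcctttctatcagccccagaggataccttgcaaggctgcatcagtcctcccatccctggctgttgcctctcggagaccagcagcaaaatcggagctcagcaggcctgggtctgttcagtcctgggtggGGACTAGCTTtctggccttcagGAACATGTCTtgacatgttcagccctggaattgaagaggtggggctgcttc
Ccng1, chr11:40755287-40755536, minus strand: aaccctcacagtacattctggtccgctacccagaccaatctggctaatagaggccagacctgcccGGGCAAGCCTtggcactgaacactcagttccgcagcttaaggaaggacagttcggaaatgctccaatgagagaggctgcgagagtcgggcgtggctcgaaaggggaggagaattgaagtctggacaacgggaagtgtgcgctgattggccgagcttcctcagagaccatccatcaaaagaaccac
Mdm2, chr10:117710759-117711008, minus strand: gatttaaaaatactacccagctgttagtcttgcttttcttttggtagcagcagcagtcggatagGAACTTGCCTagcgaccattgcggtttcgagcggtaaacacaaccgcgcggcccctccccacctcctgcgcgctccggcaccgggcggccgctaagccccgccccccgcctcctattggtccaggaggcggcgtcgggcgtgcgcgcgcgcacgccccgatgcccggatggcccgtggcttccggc
Gadd45g, chr13:51846425-51846674, plus strand: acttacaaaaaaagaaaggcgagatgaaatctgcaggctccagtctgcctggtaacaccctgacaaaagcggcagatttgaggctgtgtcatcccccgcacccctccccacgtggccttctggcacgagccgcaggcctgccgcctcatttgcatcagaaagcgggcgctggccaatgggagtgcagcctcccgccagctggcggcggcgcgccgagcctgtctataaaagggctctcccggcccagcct
The Cdkn1a window lies before the more upstream of its 2 listed starts and holds the decamers GGACTAGCTT and GAACATGTCT, which begin 73 and 51 bases before the start. The window of Ccng1 holds GGGCAAGCCT and that of Mdm2 GAACTTGCCT. The window before the other Cdkn1a start and those of Cdkn1b, Gadd45b and Gadd45g held none, while those of Gadd45a and Trp53 held 1 each. The NR4A motif NBRE (AAAGGTCA, in 1.51% of all windows), the AP-1 motif (TGANTCA, 7.81%) and the CRE motif (TGACGTCA, 1.79%) were in 0 of the 8 genes' windows, on either strand. A match is a description of these letters, not a binding site.

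p21 was the clearest of the inhibitors. Cdkn1a (chromosome 17: 29090976 to 29100727, GRCm38) was at 76.9 and 74.4 CPM in the libraries labelled dKO at 24 h, against 24.8 and 25.1 CPM in WT at 24 h. At 48 h it was at 70.4 and 64.2 CPM in the libraries labelled dKO, against 47.1 and 44.3 CPM in WT. All 4 libraries labelled dKO lay above all 4 WT libraries, and the dKO level at 24 h lay above the WT level at 48 h. Tests are quasi-likelihood F tests (edgeR) fitted to all 8 libraries, adjusted over the 12742 genes tested (Benjamini-Hochberg) and called below 0.05. Cdkn1a rose by a log2 fold change of 1.60 at 24 h (SE 0.138, adjusted p = 0.000597), a 3.03-fold higher level. At 48 h the log2 fold change was 0.56 (SE 0.132, adjusted p = 0.0276). The 24 h call held in all 15 alternative fits (adjusted p at most 0.0377), whereas the weaker 48 h call did not. It needed each library of 24 h and both dKO libraries of 48 h (adjusted p = 0.0527 to 0.194 without 1 of them), and it was lost when the 48 h libraries were fitted alone (0.149).

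The other inhibitor gave no such difference. Cdkn1b (chromosome 6: 134920401 to 134925513) was at 23.9 and 23.6 CPM in the libraries labelled dKO and 25.2 and 22.6 CPM in WT at 24 h, and at 33.1 and 30.0 CPM in the libraries labelled dKO and 33.6 and 27.8 CPM in WT at 48 h. The groups overlapped at both times. Its log2 fold change of -0.01 at 24 h had a 95% interval of -0.38 to 0.36, and that of 0.05 at 48 h an interval of -0.31 to 0.41, so a difference of the size seen for Cdkn1a at 24 h lies outside both intervals.

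**Figure D1:**
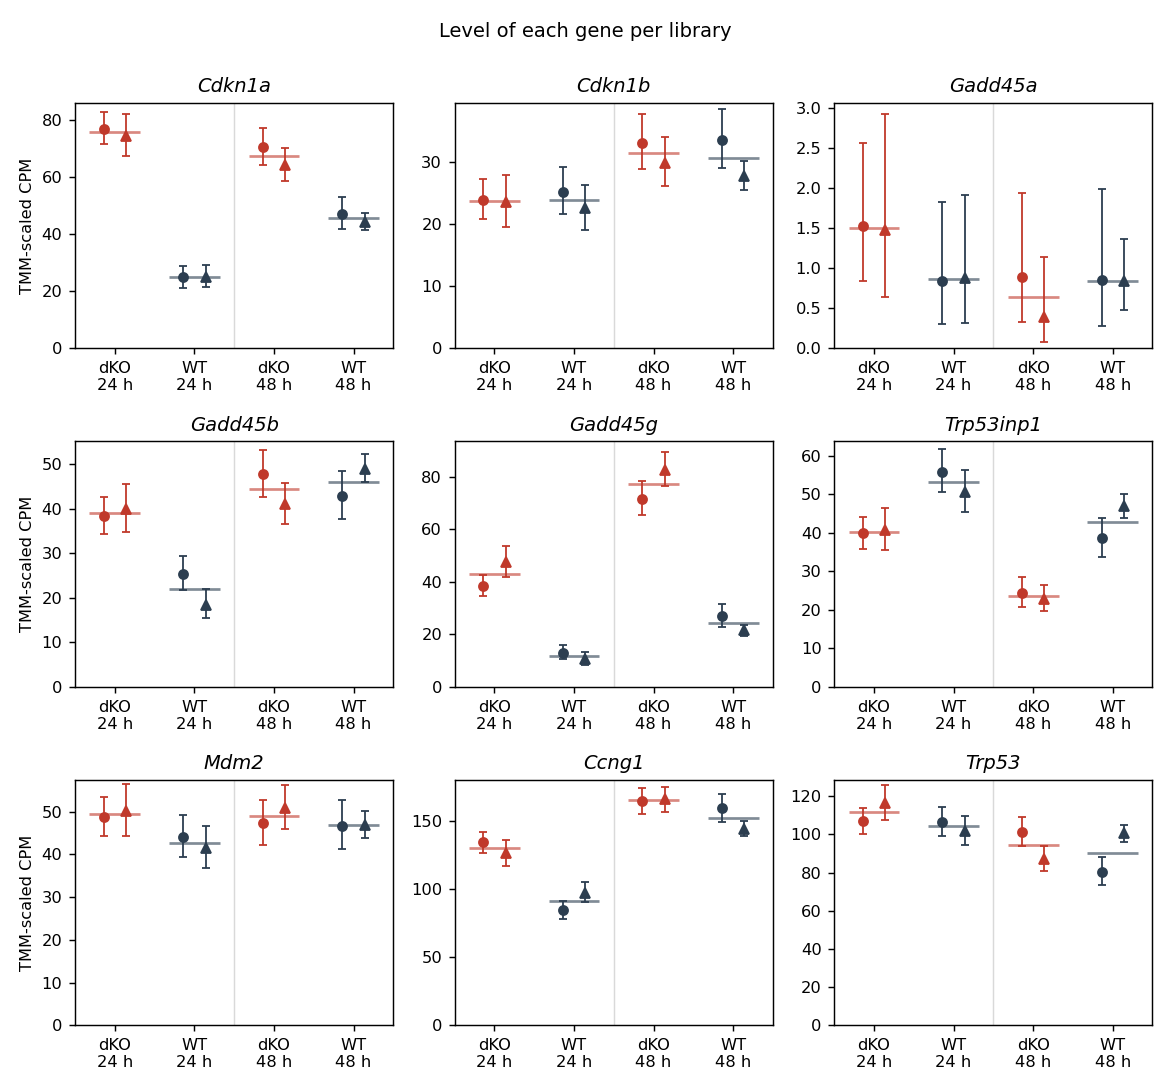
Level of each of the 9 genes in each library (vertical axis, TMM-scaled CPM from 0, on a scale of its own per gene) for dKO and WT at 24 h and at 48 h; circles are replicate 1, triangles replicate 2, lines group means and bars 95% Poisson counting intervals. Cdkn1a and Gadd45g were higher in both libraries labelled dKO at both times, Trp53inp1 was lower, and Cdkn1b and Trp53 had levels close to those of WT.

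The 3 GADD45 genes behaved differently from one another. Gadd45g (chromosome 13: 51846678 to 51848468) was at 38.4 and 47.5 CPM in the libraries labelled dKO at 24 h, against 13.0 and 10.7 CPM in WT. At 48 h it was at 71.6 and 82.7 CPM in the libraries labelled dKO, against 26.9 and 21.5 CPM in WT. Its 2 groups stood apart at each time, and the gap was of like size on the log2 scale, 1.85 at 24 h (SE 0.198, adjusted p = 0.00272) and 1.69 at 48 h (SE 0.184, adjusted p = 0.00314), which are 3.6-fold and 3.22-fold higher levels. Over both times the log2 fold change was 1.77 (SE 0.135, adjusted p = 0.000134), a call that held in all 14 alternatives. The call at 24 h was lost without WT 24 h replicate 1 or 2 (adjusted p = 0.0773 and 0.135). Leaving out dKO 48 h replicate 2 ended the later call (0.0906).

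Gadd45b (chromosome 10: 80930073 to 80932204) was at 38.3 and 39.9 CPM in the libraries labelled dKO at 24 h, against 25.4 and 18.5 CPM in WT. By 48 h the groups overlapped, at 47.7 and 41.0 CPM in the libraries labelled dKO and 42.8 and 49.0 CPM in WT. The log2 fold change of 0.83 at 24 h did not pass (SE 0.185, adjusted p = 0.132), and at 48 h it was -0.06 (95% interval -0.45 to 0.34). At 24 h Gadd45b passed without WT 48 h replicate 1 or 2 (adjusted p = 0.00798 and 0.00838), with no filter on low counts (0.0113) and with the 24 h libraries fitted alone (0.0409), over a range of 0.00798 to 0.811 for all alternatives.

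Gadd45a (chromosome 6: 67035096 to 67037457), the GADD45 gene best known as a p53 target, was near the limit of detection. It had 14 and 8 counts in the libraries labelled dKO and 6 and 6 counts in WT at 24 h, and 6 and 3 counts in the libraries labelled dKO and 5 and 16 counts in WT at 48 h. The ratio of the summed counts, scaled for depth, was 1.76 at 24 h (95% exact counting interval 0.833 to 3.9) and 0.739 at 48 h (0.298 to 1.68). Both intervals include a ratio of 1, so no difference between the labels was detected, and at this depth any ratio within them could have been missed. The gene overlaps a non-coding transcript on the opposite strand, and whether the counts respect strand is not given, so its few counts can hold reads of that transcript. Cdkn1a likewise overlaps a transcript of uncertain status on the opposite strand, while the other 7 genes overlap no annotated gene in GENCODE M21.

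The p53 gene did not differ detectably between the labels. Trp53 (chromosome 11: 69580359 to 69591873) was at 107.1 and 116.5 CPM in the libraries labelled dKO and 106.7 and 101.7 CPM in WT at 24 h. At 48 h it was at 101.2 and 87.3 CPM in the libraries labelled dKO and 80.5 and 100.6 CPM in WT. The log2 fold changes were 0.10 (95% interval -0.26 to 0.46) and 0.05 (-0.30 to 0.41). RNA levels do not report the amount of p53 protein, which is set mainly by its turnover.

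Among the p53 targets, Mdm2 and Ccng1 gave no called difference and Trp53inp1 was lower. Mdm2 (chromosome 10: 117688875 to 117710758) was at 48.7 and 50.1 CPM in the libraries labelled dKO and 44.0 and 41.5 CPM in WT at 24 h, and at 47.3 and 50.8 CPM in the libraries labelled dKO and 46.7 and 46.9 CPM in WT at 48 h. Its groups stood just apart at both times, yet its log2 fold changes of 0.21 (95% interval -0.09 to 0.51) and 0.07 (-0.23 to 0.36) did not pass, and both upper bounds lie below the log2 fold change of Cdkn1a at 24 h. Ccng1 (chromosome 11: 40748552 to 40755311), which encodes cyclin G1, a partner of a phosphatase that acts on MDM2, was at 134 and 126 CPM in the libraries labelled dKO and 84.3 and 97.4 CPM in WT at 24 h, and at 164 and 166 CPM in the libraries labelled dKO and 159 and 144 CPM in WT at 48 h. Its log2 fold change of 0.52 at 24 h did not pass (SE 0.146, adjusted p = 0.273), although it did without WT 48 h replicate 1 or 2 (0.0243 and 0.0247; 0.0243 to 1 over all alternatives), and at 48 h it was 0.12 (95% interval -0.20 to 0.44).

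Trp53inp1 (chromosome 4: 11156431 to 11174379), a p53 target that promotes cell death and autophagy, ran the other way. It was at 39.8 and 40.6 CPM in the libraries labelled dKO at 24 h, against 55.8 and 50.5 CPM in WT, and at 24.4 and 22.8 CPM in the libraries labelled dKO at 48 h, against 38.5 and 46.9 CPM in WT. Both libraries labelled dKO were lower than both WT libraries at each time. The log2 fold change was -0.40 at 24 h (SE 0.152, adjusted p = 0.548) and -0.87 at 48 h (SE 0.155, adjusted p = 0.0147), so it fell at 48 h to 0.549 times the WT level. That call was lost without dKO 48 h replicate 1 or 2 (adjusted p = 0.137 and 0.191) and in the fit of the 48 h libraries alone (0.0883), and the fall over both times (log2 fold change -0.63, adjusted p = 0.0162) was lost without WT 24 h replicate 1 or any 1 of the 4 libraries labelled dKO (0.0652 to 0.123).

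**Figure D2:**
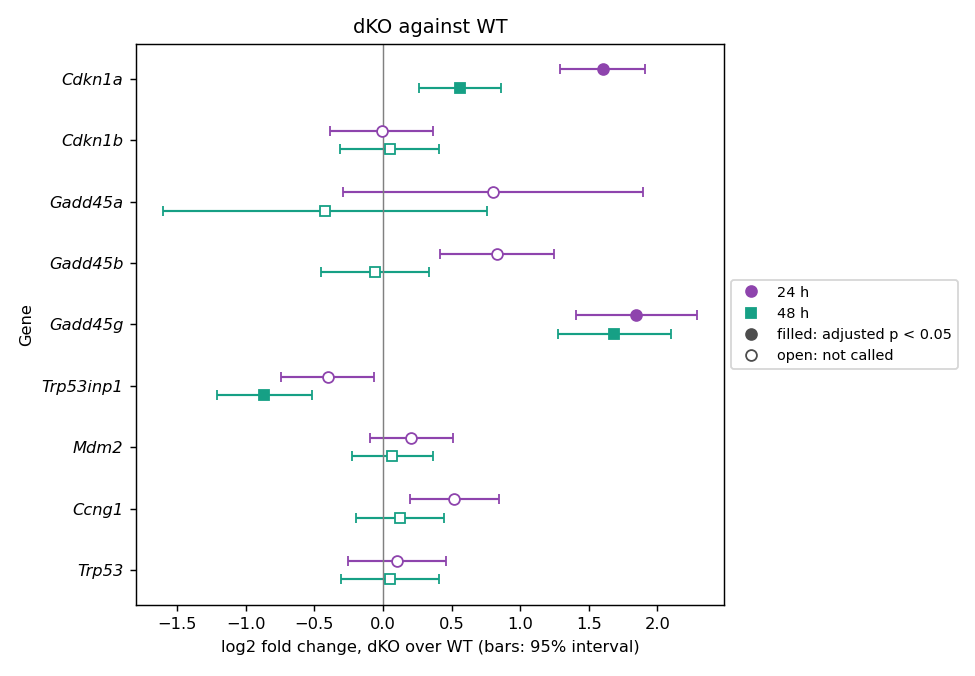
Log2 fold change of each gene between libraries labelled dKO and WT libraries (horizontal axis) at 24 h (circles) and 48 h (squares), with 95% intervals from the fit to all 8 libraries; filled symbols have an adjusted p below 0.05. Cdkn1a stands at 1.60 at 24 h and 0.56 at 48 h, Gadd45g at 1.85 and 1.69, and Trp53inp1 at -0.40 and -0.87.

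All 9 genes passed the filter on low counts. Gadd45a did so only through the libraries labelled dKO at 24 h (14 and 8 counts), the group where its level was highest. Its place in the counts and medians below thus supports nothing. The 9 genes were chosen with earlier results of these data known, so the shares and medians set beside all genes describe them and test nothing. At 24 h 2 of them rose and 0 fell, where 0.361% of the 12742 genes tested rose and 0.0706% fell (0.432% in all). Their median log2 fold change was 0.52 against 0.01 over all genes tested. In 7 of the 9, Gadd45a among them, both libraries labelled dKO lay above both WT libraries at 24 h and in 1 below. They did so in 24.3% and 20.6% of all genes. At 48 h 2 rose and 1 fell, where 3.19% of all genes rose and 8.04% fell (11.2% in all). The median was 0.05 against -0.03. In 4 genes both libraries labelled dKO lay above both WT libraries at 48 h and in 1 below, where 28.3% and 28.6% of all genes did so. Over both times 2 rose and 1 fell, where 2.28% of all genes rose and 5.52% fell (7.8% in all). The number called among the 9 ran from 1 (without either WT 24 h library) to 4 (without either WT 48 h library) at 24 h, and from 0 (without dKO 48 h replicate 2) to 3 at 48 h. The calls over all genes moved with it: with 1 library left out, 13 (without WT 24 h replicate 2) to 371 (without WT 48 h replicate 2) genes were called at 24 h. At 48 h they ran from 15 (without dKO 48 h replicate 2) to 6521 (without WT 48 h replicate 1). Scaling by library size alone changed the called genes at 48 h to 1615 higher and 916 lower, against 406 higher and 1024 lower with TMM. The median of all genes was then 0.15, against -0.03 with TMM, and the 3 calls among the 9 genes held.

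The next comparison sets 48 h against 24 h within each label. In the libraries labelled dKO, 1 gene rose and 1 fell at 48 h, where 1.76% of all genes rose and 1.88% fell (3.63% in all). Gadd45g rose by 0.85 on the log2 scale (SE 0.179, adjusted p = 0.034), and Trp53inp1 fell by 0.77 on the log2 scale (SE 0.157, adjusted p = 0.0302). Cdkn1a was at 70.4 and 64.2 CPM at 48 h, against 76.9 and 74.4 CPM at 24 h, a log2 fold change of -0.17 (95% interval -0.46 to 0.12). Gadd45b had a log2 fold change of 0.18 (-0.22 to 0.58) and Cdkn1b of 0.41 (0.04 to 0.78; adjusted p = 0.18). Leaving out any 1 library of 24 h or any 1 dKO library of 48 h ended the call of Gadd45g (0.0528 to 0.317). That of Trp53inp1 was lost without any 1 of the 4 libraries labelled dKO (0.222 to 0.304).

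In WT, Cdkn1a rose to 47.1 and 44.3 CPM at 48 h, against 24.8 and 25.1 CPM at 24 h (log2 fold change 0.87, SE 0.138, adjusted p = 0.00289). Gadd45b rose by 1.07 (SE 0.183, adjusted p = 0.00428), Gadd45g by 1.01 (SE 0.199, adjusted p = 0.00911) and Ccng1 by 0.74 (SE 0.146, adjusted p = 0.0094), all on the log2 scale. In total 4 of the 9 rose in WT and 0 fell, where 7.87% of all genes rose and 3.5% fell (11.4% in all). All 4 calls were lost when the 4 WT libraries were fitted alone (adjusted p = 0.0688 to 0.12). That of Ccng1 was also lost without WT 24 h replicate 1 (0.0798) and with library size alone (0.135), and those of Gadd45b and Gadd45g without WT 24 h replicate 2 (0.0659 and 0.134).

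**Figure D3:**
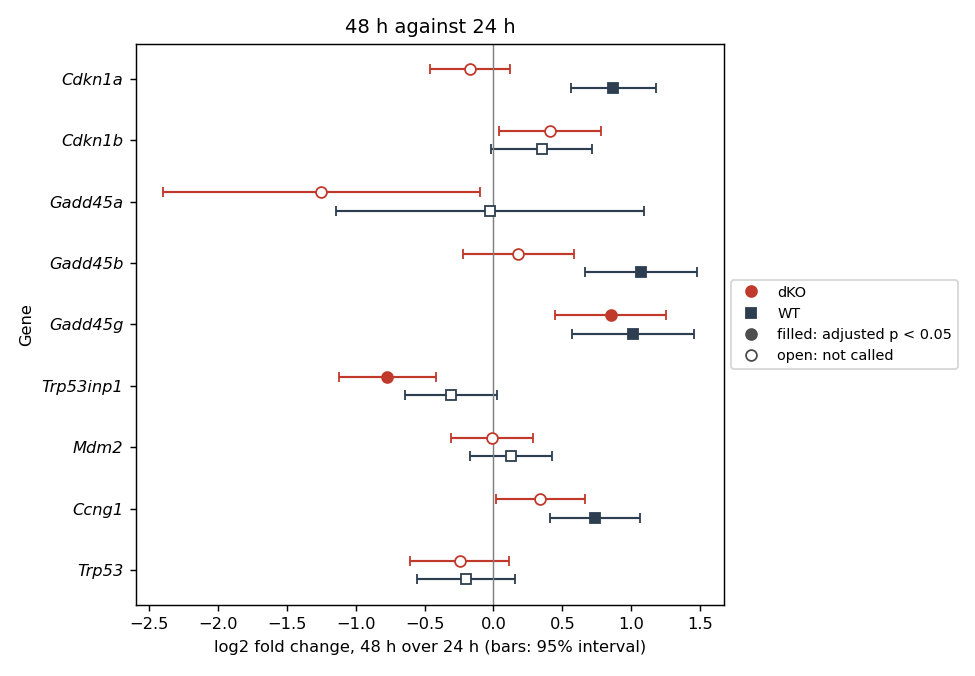
Log2 fold change of each gene at 48 h over 24 h (horizontal axis) in libraries labelled dKO (circles) and in WT libraries (squares), with 95% intervals; filled symbols have an adjusted p below 0.05. Cdkn1a and Gadd45b stood at -0.17 and 0.18 in the libraries labelled dKO, and rose in WT, at 0.87 and 1.07.

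Whether the genotype difference itself changed between the times was tested as an interaction. For Cdkn1a the difference was smaller at 48 h by 1.04 on the log2 scale (interaction -1.04, SE 0.19), the third smallest p of all genes, but it did not pass (unadjusted p = 0.000298, adjusted p = 0.369). Gadd45b was at -0.89 (SE 0.255, adjusted p = 0.369), Trp53inp1 at -0.46 (adjusted p = 0.421) and Gadd45g at -0.16 (95% interval -0.76 to 0.43). In edgeR 0 of 12742 genes were called for the interaction (0%), with 1575 (12.4%) at an unadjusted p under 0.05, 2 of the 9 genes among them. DESeq2 also called 0, with 914 at an unadjusted p under 0.05. That count rests on single libraries: 3459 of 13248 genes were called without WT 48 h replicate 1, 21 without WT 48 h replicate 2 and 141 without WT 24 h replicate 1, and 170 with no filter on low counts. Cdkn1a passed without WT 48 h replicate 1 or 2 (adjusted p = 0.00101 and 0.0174) and with no filter on low counts (0.0384), over a range of 0.00101 to 1 for all alternatives, and Gadd45b and Trp53inp1 passed without WT 48 h replicate 1 (0.00535 and 0.0192).

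Other genes that p53 is known to induce gave a mixed picture. Of 38 listed targets 34 were tested: 3 rose and 0 fell at 24 h, 4 rose and 2 fell at 48 h, and 6 rose and 3 fell over both times. Over all genes 0.432% were called at 24 h, 11.2% at 48 h and 7.8% for both times together. The median log2 fold change of the 34 targets was 0.33 at 24 h and 0.02 at 48 h, against 0.01 and -0.03 over all genes. This list and those below were also chosen with earlier results of these data known, so such shares and medians describe them and test nothing. Cd82, a tetraspanin of the plasma membrane, rose at both times, to 109 and 93.1 CPM in the libraries labelled dKO against 49.1 and 56.1 CPM in WT at 24 h (log2 fold change 0.95, adjusted p = 0.0445), and to 118 and 130 CPM in the libraries labelled dKO against 71.9 and 59.5 CPM in WT at 48 h (0.92, adjusted p = 0.0147). Psrc1, a mitotic spindle protein, also rose at both times, to 12.0 and 11.7 CPM in the libraries labelled dKO against 4.49 and 4.98 CPM in WT at 24 h (1.32, adjusted p = 0.0231), and by 0.64 on the log2 scale at 48 h (adjusted p = 0.0454). Plk2, a stress-induced polo-like kinase, rose at 24 h, to 17.8 and 11.7 CPM in the libraries labelled dKO against 4.49 and 5.27 CPM in WT (1.61, adjusted p = 0.042), and was at 0.61 at 48 h (adjusted p = 0.141).

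Over both times further listed targets were called. Pmaip1, which encodes the BH3-only protein NOXA, rose by 0.66 on the log2 scale (SE 0.143, adjusted p = 0.0272), and Phlda3, an inhibitor of AKT, by 0.81 (SE 0.139, adjusted p = 0.0162). Bax, the pore-forming death protein, rose by 0.45 (adjusted p = 0.0345), although its annotation overlaps another gene on the same strand. Pidd1, which encodes a scaffold that activates caspase-2, fell by 0.63 (SE 0.139, adjusted p = 0.0282); at 48 h it was at 96.9 and 95.8 CPM in the libraries labelled dKO against 184 and 213 CPM in WT. The stress kinase gene Plk3 (-0.72, adjusted p = 0.0288) and Xpc, a sensor of DNA damage (-0.67, adjusted p = 0.0359), also fell. At 24 h the libraries labelled dKO lay within the WT range for Pidd1 (67.8 and 71.2 CPM against 96.9 and 63.6 CPM). They did so for Plk3 too (1011 and 1015 CPM against 1510 and 987 CPM). Plk3 overlaps a protein-coding gene on the opposite strand. Cd82 overlaps a microRNA gene on the same strand and a non-coding gene on the opposite strand, so counts of both may be shared. Triap1, an apoptosis inhibitor gene, rose at 48 h (0.91, adjusted p = 0.0482) and was at 0.21 at 24 h (adjusted p = 0.923). Bax, Plk3, Xpc and Triap1 lie outside the rule for named genes and were chosen after their values were seen. Cd82 over both times was called in all 14 alternatives, while each other call in these lists was lost in at least 1. In the DESeq2 Wald test Xpc over both times (adjusted p = 0.149) and Psrc1 at 48 h (0.15) did not pass, while the other genotype calls held. Xpc was also lost with library size alone in edgeR (adjusted p = 0.057). At 24 h Cd82, Psrc1 and Plk2 each lost their call without any 1 library of 24 h or any 1 dKO library of 48 h (adjusted p = 0.0507 to 0.652). Without WT 48 h replicate 2, Psrc1 (0.50, adjusted p = 0.13), Bax (0.41, adjusted p = 0.0737) and Triap1 (0.53, adjusted p = 0.0854) did not pass at 48 h.

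**Figure D4:**
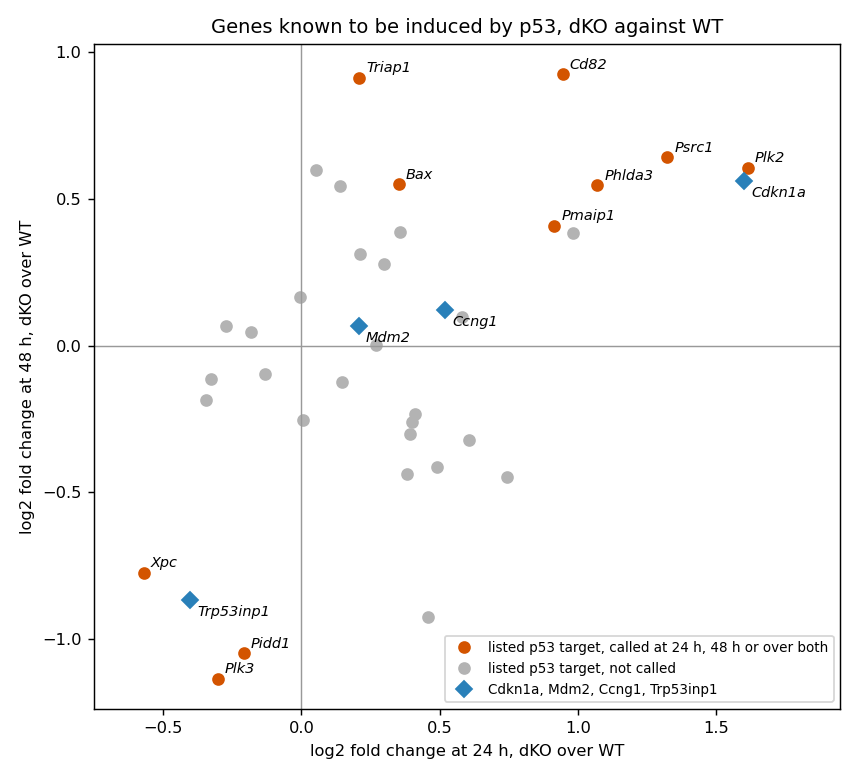
Log2 fold change between libraries labelled dKO and WT libraries at 24 h (horizontal axis) and at 48 h (vertical axis) for 34 listed p53 targets (dots; orange where called at 24 h, at 48 h or over both times) and for Cdkn1a, Mdm2, Ccng1 and Trp53inp1 (diamonds). Cdkn1a lies beside Plk2 at 1.60 and 1.61 at 24 h, and Trp53inp1, Xpc, Pidd1 and Plk3 lie below 0 at both times. For Pidd1 and Plk3 the libraries labelled dKO and the WT libraries overlapped at 24 h.

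The other lists surround p53, the inhibitors and the GADD45 proteins. Of 15 tested genes that control p53, 0 were called at 24 h, where 0.432% of all genes were, and 0 had an unadjusted p under 0.05, as 6.98% of all genes did. At an unadjusted p under 0.05, 7 of the 15 were lower and 0 higher at 48 h, and 4 lower and 0 higher over both times. Of all genes 33.1% and 27.9% passed in either direction. The median log2 fold change of the 15 at 48 h was -0.48, against -0.03 over all genes. How far this rests on WT 48 h replicate 2 was not tested. It held 64.4 CPM of Atm, 88.2 of Usp7 and 84.8 of Mdm4, against 23.2, 44.3 and 43.3 CPM in replicate 1. The libraries labelled dKO held 24.7 and 21.7, 43.5 and 39.9, and 47.1 and 46.3 CPM of these genes. Rchy1, Chek2, Cop1 and Kat5 were lower in replicate 2 than in replicate 1. At an adjusted p 2 fell at 48 h, where 8.04% of all genes did. They were the damage kinase gene Atr (-1.09, adjusted p = 0.045) and the acetyltransferase gene Ep300 (-1.24, adjusted p = 0.0376). WT 48 h replicate 2 alone held 32.7 CPM of Atr and 35.3 CPM of Ep300, against 15.7 and 15.5 CPM in replicate 1. Without that library the log2 fold changes were -0.41 for Atr (adjusted p = 0.241) and -0.48 for Ep300 (adjusted p = 0.16). Of 8 tested CDK inhibitors and p27 turnover genes 0 were called at an adjusted p in any genotype comparison. At an unadjusted p under 0.05, 3 were higher and 0 lower at 24 h, 1 higher and 2 lower at 48 h, and 5 higher and 2 lower over both times, where 6.98%, 33.1% and 27.9% of all genes passed in either direction. Among 11 tested cyclins and kinases that p21 and p27 bind, 1 fell at 48 h, where 8.04% of all genes did. It was Ccne1 (cyclin E1), at 289 and 283 CPM in the libraries labelled dKO against 490 and 524 CPM in WT (-0.83, adjusted p = 0.0199). Over both times Ccne1 fell (-0.48, adjusted p = 0.0489) and Cdk1, the mitotic kinase gene, rose (0.49, adjusted p = 0.0346). Of all genes 5.52% fell and 2.28% rose over both times. Of 10 tested GADD45 partners 1 fell at 48 h, again beside 8.04% of all genes. Map3k4, the kinase that GADD45 proteins bind and activate, had a log2 fold change of -1.31 (adjusted p = 0.0339). It was at 4.46 and 2.72 CPM in the libraries labelled dKO against 5.97 and 10.9 CPM in WT. Without WT 48 h replicate 2 its log2 fold change was -0.74, and its call was lost when the 48 h libraries were fitted alone (adjusted p = 0.162, edgeR). Map2k3, which activates p38, rose over both times (0.50, SE 0.0985, adjusted p = 0.0238), where 2.28% of all genes rose. Over the 5 lists 78 genes were tested; the number called ran from 0 to 8 at 24 h, from 0 to 43 at 48 h and from 1 to 40 over both times when 1 library was left out, with the highest count without WT 48 h replicate 1 in each case (tied with replicate 2 at 24 h). The lowest came without any 1 library of 24 h or dKO library of 48 h at 24 h, without either dKO 48 h library at 48 h, and without dKO 24 h replicate 1 or dKO 48 h replicate 2 over both times. These counts moved with those over all genes in the same fits, which ran from 13 to 371 at 24 h, 15 to 6521 at 48 h and 56 to 5606 over both times.

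The genes whose levels most resembled those of 3 members were ranked by Pearson's r of log2 CPM over the 8 libraries, among 10190 genes with a mean of at least 20 counts. Libraries of a group share their label and time, so r here is a measure of likeness with no test. Closest to Cdkn1a were Sytl3, a vesicle transport gene (r = 0.975), Acsl6, a fatty acid activating enzyme gene (0.97), and Tnfrsf4, which encodes the costimulatory receptor OX40 (0.964). Tnfrsf4 was at 66.9 and 61.2 CPM in the libraries labelled dKO and 26.5 and 26.5 CPM in WT at 24 h, and at 78.2 and 74.8 CPM in the libraries labelled dKO and 50.1 and 41.6 CPM in WT at 48 h. Closest to Gadd45g were Mrps5, a mitochondrial ribosome gene (r = 0.984), Lta, which encodes lymphotoxin alpha (0.982), and Id2, a regulator of effector differentiation (0.979). Closest to Trp53inp1 were Heca (r = 0.989), Epb41l2, a membrane skeleton gene (0.986), and Inpp4b, a phosphoinositide phosphatase gene (0.986).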

How the data were processed

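RNA of cultured mouse CD8+ T cells was measured in 8 libraries, in 4 groups of 2. The authors deposited raw counts per gene symbol; the submitters' processing notes name cutadapt 1.18, Bowtie2 2.2.5 and the mm10 build. How reads were counted (program, annotation, strand, molecular identifiers) is not given in the sources used here, so counts of overlapping genes may be shared. The last entry of the table has no name and holds the column totals (50% of each column sum), and it was left out.

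Counts were fitted with edgeR 4.0.16 (R 4.3.3): filterByExpr (minimum count 10, 12742 genes kept), TMM, 1 mean per group over all 8 libraries, and quasi-likelihood F tests, two-sided, with Benjamini-Hochberg adjustment over all genes and calls below 0.05. Common dispersion was 0.0246, and intervals used 9.76 degrees of freedom. The SE was derived from the fold change and F. Samples were grouped by title. Alternatives were DESeq2 1.42.0, other scalings and filters, a replicate block and left-out libraries. Log2 CPM for likeness used a prior count of 2. The procedure was tested on simulated data. Named genes were the 9 members, up to 6 called genes per list and the 3 genes most like Cdkn1a, Gadd45g and Trp53inp1. The members and lists were chosen with earlier results of these data known. Positions are from GENCODE M21 (GRCm38), promoter sequences from RefSeq (GRCm38.p6).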

Additional observations from a re-analysis of the deposited data

How the results depend on the processing

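Of 784 values of single genes under alternatives, 683 held their direction and side of the threshold, 36 lost and 27 gained a call, and 38 changed sign, none of them a value called in the fit to all libraries. With 1 library left out in turn, the number of the 9 genes called ran from 1 to 4 at 24 h, 0 to 3 at 48 h, 2 to 5 over both times, 0 to 3 for the interaction, 0 to 4 for time in the libraries labelled dKO and 2 to 6 for time in WT. Over the 5 pathway lists these ranges were 0 to 8 at 24 h, 0 to 43 at 48 h and 1 to 40 for both times together, while over all genes 13 to 371, 15 to 6521 and 56 to 5606 were called in these fits. With only the 4 libraries of a comparison in the fit, 1 of the 9 was called at 48 h, 5 for time in the libraries labelled dKO and 0 for time in WT, and 5 and 4 pathway genes at 24 h and 48 h. With no filter on low counts, 1 of the 9 was called for the interaction and 5, 16 and 22 pathway genes at 24 h, 48 h and over both times. At 48 h 18 pathway genes were called with library size alone and 6 with a mean of at least 50 counts. The cause of these shifts was not tested.

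Replicate numbers are shared by the groups, and the deviations of same-numbered libraries correlated between the labels at -0.076 at 24 h and -0.064 at 48 h. The largest value between any 2 groups was 0.172 (dKO at 24 h with WT at 48 h). Such values show no strong shared deviation, but they cannot tell whether same-numbered libraries were paired, which is not known. With the replicate block 1 pathway gene was called at 24 h, against 3 without it; 8 and 11 were called at 48 h and over both times, and the counts over the 9 genes held.

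The sign changes were all of uncalled values. With library size alone they were Gadd45b at 48 h (0.12), Gadd45g, Mdm2 and Trp53 for the interaction (0.024, 0.049 and 0.14), and Cdkn1b and Mdm2 for time in WT (-0.0081 and -0.23). With a mean of at least 50 counts they were Cdkn1b and Trp53 at 48 h (-0.0064 and -0.0057) and Cdkn1b over both times (-0.0199). Mdm2 for time in the libraries labelled dKO was at 0.019 with DESeq2 size factors, 0.028 in DESeq2 and 0.022 with no filter, and Gadd45a for time in WT at 0.016 with the replicate block. With 1 library left out, Cdkn1b ran from -0.104 to 0.076 at 24 h, -0.085 to 0.17 at 48 h, -0.055 to 0.0699 over both times and -0.059 to 0.19 for the interaction. Trp53 ran from -0.11 to 0.23 at 48 h, -0.014 to 0.16 over both times and -0.19 to 0.15 for the interaction, and Gadd45a from -1.08 to 0.064 at 48 h and -0.15 to 0.43 over both times. Gadd45b ran from -0.16 to 0.056 at 48 h, Gadd45g from -0.31 to 0.0082 for the interaction and Mdm2 from -0.055 to 0.068 for time in the libraries labelled dKO. Scaling by library size alone moved the median of all genes to -0.18 for time in the libraries labelled dKO, -0.36 for time in WT, 0.15 at 48 h and 0.15 for the interaction, within 0.05 of 0 in each case with TMM. With 3 to 16 counts per library, depth limits what can be said of Gadd45a.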
